A study of Mus musculus with 6 samples.

Results

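Ifng, Tnf, Lta, Ltb, Il2 and Csf2 encode the effector cytokines interferon-gamma, tumour necrosis factor, lymphotoxin alpha, lymphotoxin beta, interleukin-2 and GM-CSF. Their loci were described in open chromatin of wild-type (WT) mouse CD8+ T cells, the killer lymphocytes of adaptive immunity. A region belonged to these loci when it overlapped the span of a gene, or when its nearest end of a protein-coding gene was an end of one of these 6 genes and lay within 50 kb. This gave 24 of 24605 regions: 11 at Ifng, 2 at Tnf, 3 at Lta, 3 at Ltb, 3 at Il2 and 2 at Csf2. The choice used position alone and no measured value.

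The series asked what palmitate, a saturated fatty acid, does to CD8+ T cell function. Cells from pancreas, spleen and lymph nodes had 48 hours of treatment with 100 µM palmitate in complete medium (3 libraries) or served as control (3 libraries), and accessible DNA of 50000 sorted cells each was tagged with the Tn5 transposase (ATAC-seq). Both groups were WT, and the labels give neither the age of the mice nor what the control medium held in place of palmitate. Whether replicates are separate animals or cultures is not in the labels, and p-values therefore cover just the spread of these libraries, which may be technical.

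Activated CD8+ T cells make these cytokines within hours of antigen contact. Antigen receptor signals reach the genes through NFAT, AP-1 and NF-kB factors, and T-box and RUNX factors act at Ifng in effector cells. Ifng stands alone in a wide stretch without other protein-coding genes, and conserved elements on both of its sides are known to act in its expression in mouse T cells. Ltb, Tnf and Lta lie next to each other in the major histocompatibility complex. Lymphotoxin beta is anchored in the membrane and binds lymphotoxin alpha. Interleukin-2 drives T cell proliferation, and GM-CSF acts on myeloid cells.

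Depth was 2614890 to 3089230 counts in palmitate libraries and 2219136 to 2855574 in controls. Control 2 stood apart, with a chi-square over its degrees of freedom of 2.05 (to control 1) and 2.03 (to control 3). The same measure was 1.19 to 1.48 within the palmitate group and 1.2 for the remaining control pair. Values without it are given where leaving it out changed a call. Open chromatin was found at the ends of both Cd8a and Cd8b1, which encode the CD8 coreceptor (summed 94.8 to 134 CPM in palmitate and 101 to 112 CPM in control), and of all 6 T cell markers (234 to 255 against 246 to 272 CPM), of which Thy1 was lower (log2 fold change -0.55, edgeR adjusted p 0.0108; not passing with trended offsets, -0.50, 0.0515). CPM are the counts of a region as a share of the library's total, scaled by its TMM factor. No region lay at the ends of defining genes of B cells (Ms4a1, Cd79a, Pax5), CD4+ T cells (Cd4, Foxp3) or NK cells (Ncr1, Klrb1c, Klra8). Open regions lay at the ends of Ebf1, Zbtb7b, Cela1 and Col1a1, markers of B cells, CD4+ T cells, pancreas and stroma. The other pancreas markers (Cpa1, Prss2, Ptf1a, Ins2 and Pdx1) and the other markers of stroma and endothelium (Col1a2, Pecam1 and Cdh5) had none. Of 6 myeloid markers, Csf1r, Lyz2 and Cd68 had none, while Itgam, Spi1 and Cebpa had open regions. Only the strongest region at each gene was read. The myeloid sum was 36.0 to 42.1 CPM in palmitate and 28.3 to 37.7 CPM in control, and the Itgam end was higher in palmitate (12.0 ± 1.83 against 6.33 ± 0.925 CPM, SD, n = 3; edgeR adjusted p 0.0151). The end of Zbtb7b, the CD4 lineage factor, was also higher (62.2 against 45.1 CPM), but did not pass without control 2 (edgeR adjusted p 0.0728) or with trended offsets (0.0967). The part of such cells in the results below was not tested. In sorted but bulk cells, fewer cells with an open region and less opening per cell cannot be told apart.

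The promoter sequences show which bases the open regions at the gene starts cover. They come from RefSeq (build GRCm38.p6, the assembly of mm10) and run 5′ to 3′ on the strand of the gene. All but the Lta stretch end at the base before the transcription start. Capitals mark matches to the NFAT core GGAAA, the GC box GGGCGG or the NF-kB consensus on either strand, so that the core can read TTTCC. The Ifng promoter (chr10:118440796-118441045, + strand), the Tnf promoter (chr17:35202008-35202257, - strand) and the Ltb promoter (chr17:35194257-35194506, + strand) lay whole inside an open region. The RefSeq window of Lta lay mostly inside the span of Lta itself, and 30 bases of it around an NFAT core are shown (chr17:35205547-35205576, - strand).
Ifng: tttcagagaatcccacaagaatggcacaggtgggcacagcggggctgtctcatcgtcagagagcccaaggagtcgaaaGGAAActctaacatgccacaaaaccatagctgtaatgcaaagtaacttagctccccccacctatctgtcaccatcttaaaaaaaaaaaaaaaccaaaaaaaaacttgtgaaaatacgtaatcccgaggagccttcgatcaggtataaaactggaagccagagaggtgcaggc
Tnf: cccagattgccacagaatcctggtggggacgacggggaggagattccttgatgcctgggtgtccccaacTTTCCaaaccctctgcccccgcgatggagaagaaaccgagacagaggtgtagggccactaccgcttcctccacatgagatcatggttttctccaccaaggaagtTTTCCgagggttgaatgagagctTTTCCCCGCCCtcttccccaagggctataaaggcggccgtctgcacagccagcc
Ltb: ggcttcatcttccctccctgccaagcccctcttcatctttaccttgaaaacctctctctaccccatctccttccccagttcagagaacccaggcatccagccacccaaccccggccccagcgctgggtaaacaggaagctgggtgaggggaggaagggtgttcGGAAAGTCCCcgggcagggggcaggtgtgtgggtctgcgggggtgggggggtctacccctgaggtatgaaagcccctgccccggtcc
Lta: atcgacagagagGGAAAtgtgcagagaagc

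The Ifng promoter held 1 NFAT core, 172 bases before the start. The Tnf promoter held 3 and a GC box directly beside one of them, and the Ltb promoter held 1, at 87 bases before the start, that overlaps its NF-kB match. The core is short, and 55.6% of 32851 RefSeq promoter windows of 250 bases hold at least 1. The GC box was in 32.7% and the NF-kB consensus in 7.25% of them. None of the 6 windows held AP-1 (TGANTCA, 6.75% of all windows), the CRE half-site (TGACGT, 6.47%), the T-box motif (TCACACC, 3.33%) or the RUNX motif (TGTGGT, 14.0%). The windows of Il2 and Csf2 lay in no open region of the matrix and are not shown.

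Of the 24 regions, 4 were lower in palmitate than in control and 0 higher: 2 upstream of Ifng, 1 upstream of Il2 and 1 at the start of Lta. Both regions of Tnf, all 3 of Ltb and both of Csf2 did not pass. Over all 24316 tested regions, 12.7% were lower and 11.9% higher in the same edgeR quasi-likelihood test at an adjusted p of 0.05. The count of 4 lower regions is thus near what the whole matrix gives. Of the 14 intergenic regions 3 were lower, against 18.4% of all intergenic regions. Of the 8 regions within 1 kb of a gene end 1 was lower and 0 higher, against 2.47% and 25.0% of all such regions. Of the 2 regions inside genes 0 passed, against 19.6% lower of all regions inside genes. The 3 palmitate libraries all lay below the 3 controls in 5 of the 24 regions and all above in 1, against 21.0% and 17.9% of all regions.

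**Figure D1:**
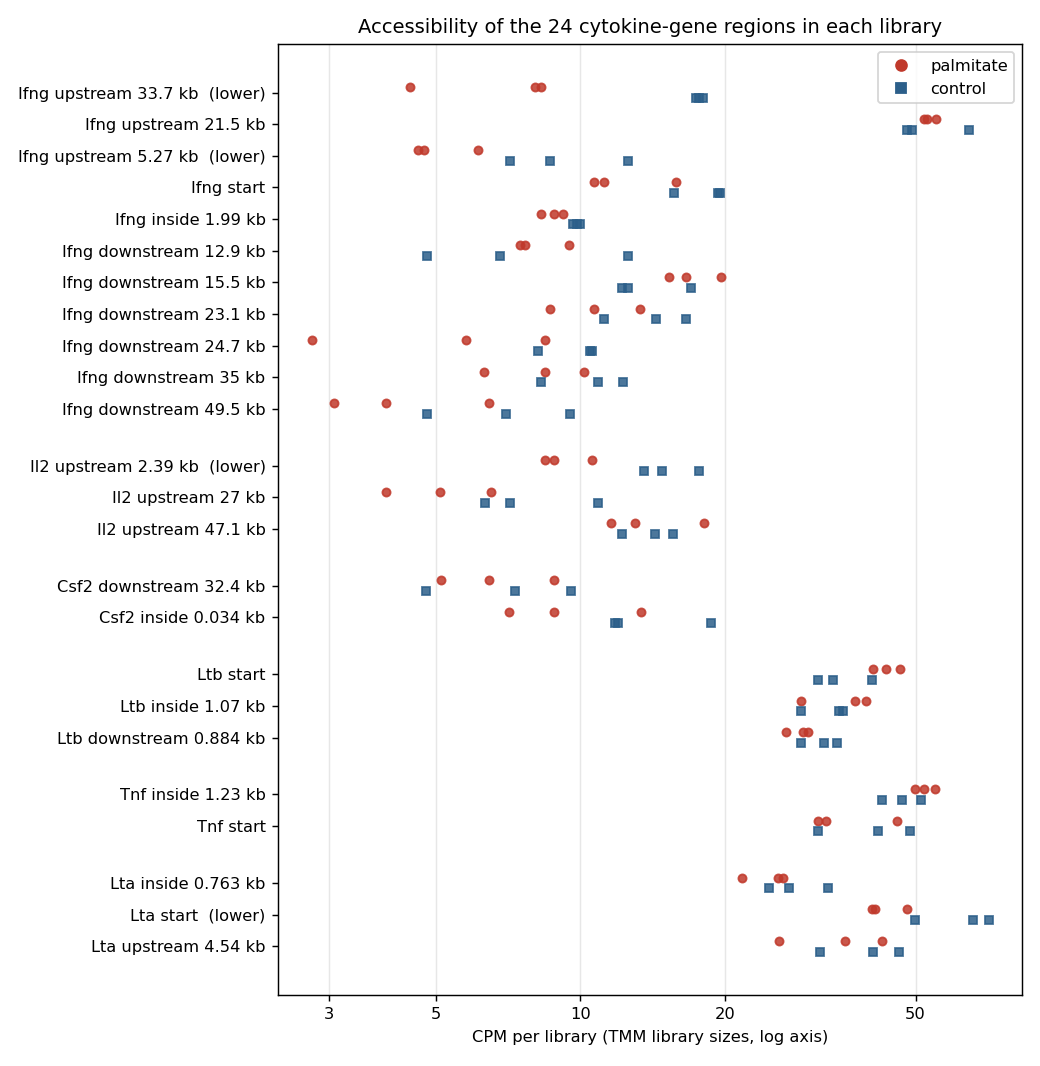
Normalised counts (CPM, log axis) in each palmitate library (circles) and control library (squares), 1 row per region, named by its gene and its distance from the gene's span or start. At the Ifng region 33.7 kb upstream, palmitate libraries sit between 4.42 and 8.28 CPM and controls between 17.4 and 18.0 CPM, while the groups mix at the Tnf start.

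Across the matrix the median log2 fold change was 0.14 for regions at gene ends, -0.24 inside genes and -0.25 for intergenic regions. A second scaling, trended offsets, fits and takes out, per library, how counts depend on region strength. With it 2 of the 24 regions were lower and 0 higher, against 4.36% lower and 2.08% higher over all regions. The 2 were the Ifng region 33.7 kb upstream, 1 of 14 intergenic regions against 5.99% of all, and the Lta start, 1 of 8 at gene ends against 1.49% of all. Inside genes it was 0 of 2, against 6.31%. The split of calls over all regions was 2894 higher and 3078 lower with TMM factors, 505 and 1061 with trended offsets, 1282 and 4331 with total counts, and 1888 and 1236 in the DESeq2 Wald test. The median log2 fold change of the 24 regions was -0.19, against -0.05 over all regions. It was -0.13 against 0.01 with trended offsets. The 24 regions are more often intergenic than the whole matrix. By place their TMM medians were -0.18 at gene ends, -0.00 inside genes and -0.35 for intergenic regions. These stand against 0.14, -0.24 and -0.25 over all regions of the same place. With total counts the median over all regions moved to -0.16.

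**Figure D2:**
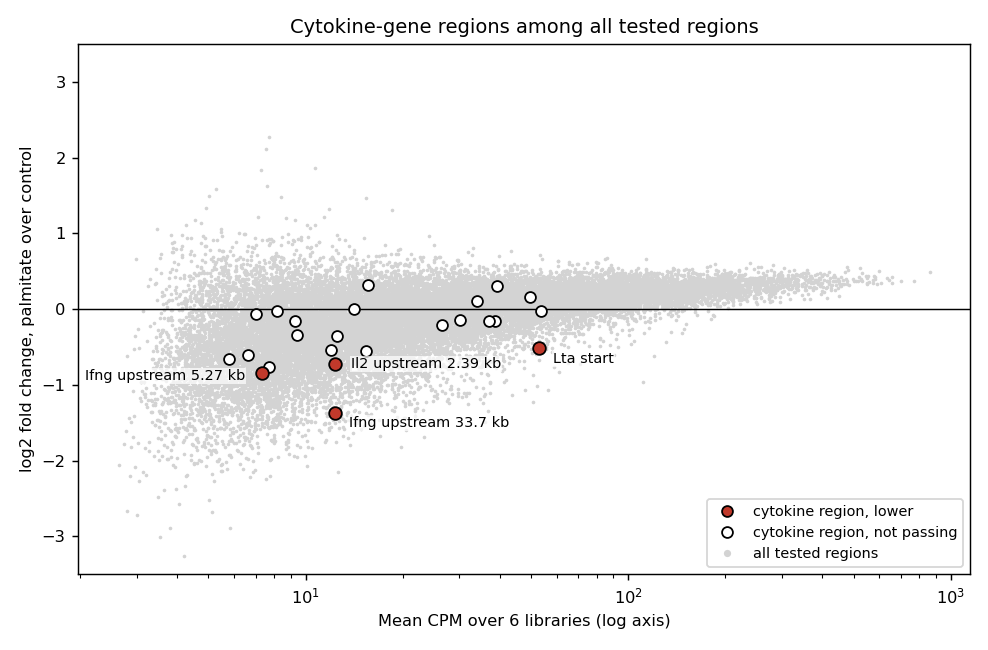
Log2 fold change (palmitate over control, TMM) against mean CPM over 6 libraries (log axis) for all 24316 tested regions (grey) and the 24 cytokine-gene regions (circles, filled where lower). The Lta start, with a mean of 52.8 CPM, has a log2 fold change of -0.52 where most regions of its strength lie near or above 0.

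At Ifng the strongest change lay far upstream. The region 33.7 kb before the gene (chromosome 10, 118406939 to 118407305, mm10, intergenic) had 8.28, 4.42 and 8.05 CPM in palmitate libraries 1 to 3, against 17.4, 18.0 and 17.7 CPM in controls 1 to 3. The raw counts were 21, 13 and 21 in palmitate and 40, 54 and 52 in control. All palmitate libraries were low, and the controls were nearly equal. The log2 fold change was -1.37 ± 0.26 (SE; edgeR adjusted p 0.000235), and -1.12 ± 0.25 (edgeR adjusted p 0.00696) with trended offsets. The authors' peak lists held a peak there in 1 of 3 palmitate and 3 of 3 control libraries. No matrix region was in fewer than 2 lists, so its place in the matrix needed a control list. Such entry favours lower values in palmitate. The region passed in all 15 alternative settings (log2 fold change -1.51 to -1.11), which all start from the same matrix and keep this selection. With trended offsets it was lost without palmitate 2 (edgeR adjusted p 0.0537) and passed without any other library.

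The next region, 21.5 kb upstream (118418905 to 118419504), was the strongest of the Ifng locus and did not pass. It had 52.0, 52.7 and 55.2 CPM in palmitate libraries, against 49.2, 64.5 and 47.9 CPM in controls. Control 2 was the high one, and the groups overlapped. Its log2 fold change was -0.02 ± 0.12 (SE; edgeR adjusted p 0.907), and its sign depended on the scaling. The log2 ratio of the raw counts of the region 33.7 kb upstream to this one was -2.65, -3.58 and -2.78 in palmitate, against -1.50, -1.85 and -1.44 in control. The groups did not overlap, and the difference of -1.41 reached the smallest p that 3 against 3 libraries allow (exact permutation test, two-sided, p 0.1). This pair was chosen after the values were seen. A ratio of counts cancels a single factor per library, but not the dependence on region strength that trended offsets take out. The regions differ in strength, with means of 12.3 CPM at 33.7 kb and 53.6 CPM at 21.5 kb. With trended offsets their log2 fold changes were -1.12 and -0.12. The Ifng start, with a mean of 15.4 CPM, is nearer in strength to the region at 33.7 kb. The log2 ratio of that region to the Ifng start was -0.93, -1.34 and -0.42 in palmitate, against 0.15, -0.13 and -0.13 in control. The difference was -0.86, without overlap (exact permutation test, two-sided, p 0.1). This second pair was also chosen after the values were seen.

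The region 5.27 kb upstream of Ifng (118435352 to 118435773) fell with TMM factors. It had 4.73, 6.12 and 4.60 CPM in palmitate libraries, against 12.6, 8.65 and 7.14 CPM in controls. The groups did not overlap, but control 1 was well above the other two. On the log2 scale the fold change was -0.84 ± 0.31 (SE; edgeR adjusted p 0.0467). It passed in 6 of 15 alternative settings. The call was lost with trended offsets (-0.41, edgeR adjusted p 0.472), without control 1 (0.223), palmitate 1 (0.121), palmitate 2 (0.064) or palmitate 3 (0.148), with DESeq2 size factors in edgeR (0.0553), in limma-voom (0.0714), in the DESeq2 Wald test (0.191) and in the fit with a replicate block (0.0575).

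The region over the Ifng start (118440588 to 118441170), which covers the promoter printed above, had 15.8, 11.2 and 10.7 CPM in palmitate libraries, against 15.7, 19.6 and 19.4 CPM in controls. Palmitate 1 lay level with control 1, and the others were apart. The log2 fold change of -0.55 ± 0.22 (SE) did not pass (edgeR adjusted p 0.0645), nor with trended offsets (0.346). It passed without palmitate 1 (0.0378), and when scaled by total counts (0.0285) or the upper quartile (0.0441). Inside the gene, a region 1.99 kb from the start (118443032 to 118443217) had 8.28, 8.83 and 9.20 CPM in palmitate libraries, against 10.0, 9.65 and 9.86 CPM in controls. The groups did not overlap but lay close together, and the log2 fold change of -0.16 did not pass (edgeR adjusted p 0.691).

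None of the 6 regions downstream of Ifng, 12.9 to 49.5 kb from its end, passed with TMM factors and all 6 libraries. Their log2 fold changes ran from -0.77 at 24.7 kb (edgeR adjusted p 0.0752) to 0.32 at 15.5 kb (edgeR adjusted p 0.292). The region at 24.7 kb passed with total counts (-0.89, edgeR adjusted p 0.0422) and without palmitate 3 (-1.15, 0.0363). It had 2.76, 5.78 and 8.44 CPM in palmitate, against 10.5, 10.6 and 8.16 CPM in control, and the groups overlapped. A listed peak was there in 0 of 3 palmitate and 3 of 3 control libraries. No matrix region was in fewer than 2 lists, so its place in the matrix rested on control lists alone. Such entry favours lower values in palmitate. The region at 15.5 kb was the only one of the 11 with a log2 fold change above 0 with TMM factors, at 17.2 ± 2.25 CPM in palmitate and 14.0 ± 2.64 CPM in control (SD, n = 3 each). Summed over the 11 regions, Ifng had 137, 146 and 141 CPM in palmitate libraries, against 165, 192 and 161 CPM in controls, without overlap. The sum includes the regions 24.7 and 49.5 kb downstream, each with listed peaks in controls only. It also includes the region 33.7 kb upstream, whose entry needed a control list. At the edge of the 50 kb limit, the last region inside it lay 49.5 kb downstream (log2 fold change -0.66), and the first ones outside lay 54.1 kb upstream (-0.97) and 60.4 kb downstream (-0.61).

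**Figure D3:**
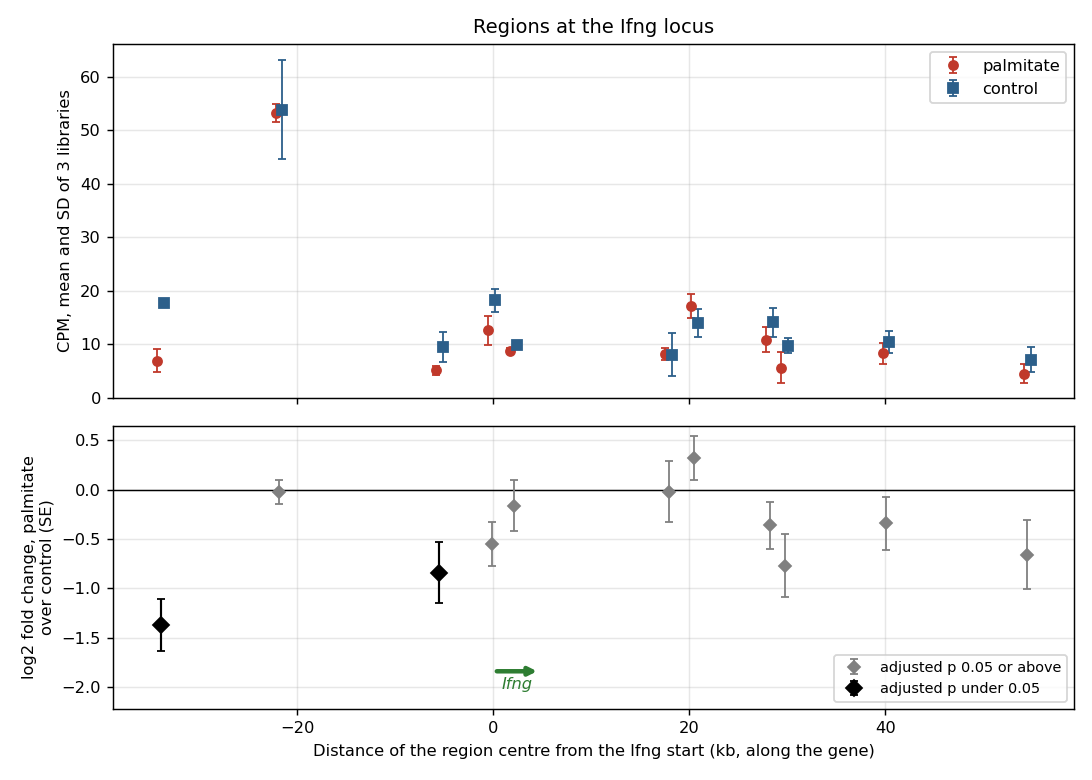
The 11 regions of the Ifng locus by distance of their centre from the Ifng start (kb). Above, mean CPM with SD of 3 palmitate (circles) and 3 control (squares) libraries. Below, log2 fold change, palmitate over control, with SE, black where the edgeR adjusted p was under 0.05. The regions 33.7 and 5.27 kb upstream are lower, and the strong region 21.5 kb upstream lies at -0.02.

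At Il2, the region 2.39 kb upstream (chromosome 3, 37128342 to 37128661, intergenic) fell. It had 10.6, 8.83 and 8.44 CPM in palmitate libraries, against 14.8, 13.6 and 17.7 CPM in controls. The groups did not overlap, and control 3 was the highest. The log2 fold change was -0.73 ± 0.24 (SE; edgeR adjusted p 0.0247). All 6 peak lists held a peak there. The call was lost with trended offsets (-0.48 ± 0.24 SE, edgeR adjusted p 0.24), without control 3 (0.138), palmitate 2 (0.0815) or palmitate 3 (0.0975), and in the DESeq2 Wald test (0.133).

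The other Il2 regions lay 27.0 and 47.1 kb upstream and did not pass (edgeR adjusted p 0.171 and 0.998). The nearer one had 5.19 ± 1.29 CPM in palmitate and 8.12 ± 2.44 CPM in control, and the farther one 14.2 ± 3.45 and 14.0 ± 1.73 CPM (SD, n = 3 each). The nearer one had a listed peak in 0 palmitate and 2 control libraries. Its place in the matrix thus rested on control lists alone, which favours lower values in palmitate, also in the sum below. Summed over the 3 regions, Il2 had 32.7, 25.5 and 28.0 CPM in palmitate libraries, against 37.9, 35.6 and 39.1 CPM in controls, without overlap. No region of the matrix lay within 1 kb of either end of Il2.

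Csf2 had the least accessible locus of the 6 genes in these cells by summed CPM. The region just inside its start (chromosome 11, 54249416 to 54249865) had 7.10, 8.83 and 13.4 CPM in palmitate libraries, against 11.8, 12.0 and 18.7 CPM in controls. Library 3 was the highest in each group, and the groups overlapped. The log2 fold change of -0.54 ± 0.26 (SE) did not pass (edgeR adjusted p 0.133; 0.574 with trended offsets). The region 32.4 kb downstream had 6.80 ± 1.87 CPM in palmitate and 7.22 ± 2.41 CPM in control (SD, n = 3 each; edgeR adjusted p 0.915).

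In the cluster of Ltb, Tnf and Lta, 1 of 8 regions fell, the one over the Lta start (chromosome 17, 35204965 to 35205588, gene end). It had 40.6, 41.1 and 47.9 CPM in palmitate libraries, against 71.0, 49.9 and 66.0 CPM in controls. Control 2 lay only just above the highest palmitate library, and the groups did not overlap. The log2 fold change was -0.52 ± 0.13 (SE; edgeR adjusted p 0.00327), and -0.61 ± 0.13 (edgeR adjusted p 0.00339) with trended offsets. The call held in all 15 alternative settings (log2 fold change -0.66 to -0.42, edgeR, limma-voom or DESeq2 adjusted p 7.7e-05 to 0.0403). With trended offsets it was lost without control 3 (edgeR adjusted p 0.051) and passed without any other library. All 6 peak lists held a peak there.

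The neighbouring starts of Tnf and Ltb did not pass. The region over the Tnf start (35201921 to 35202340) had 45.7, 31.3 and 32.6 CPM in palmitate libraries, against 41.8, 31.3 and 48.6 CPM in controls. Each group held low and high libraries, and the log2 fold change of -0.16 ± 0.16 (SE) did not pass (edgeR adjusted p 0.506). The region over the Ltb start (35194188 to 35194622) had 43.4, 40.8 and 46.4 CPM in palmitate libraries, against 33.6, 40.6 and 31.3 CPM in controls. All palmitate libraries lay above all controls, control 2 by a narrow margin. Its log2 fold change of 0.30 ± 0.14 (SE) did not pass (edgeR adjusted p 0.104), but passed without control 2 (0.0254).

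The log2 ratio of raw counts at the Lta start to those at the Ltb start was -0.09, 0.01 and 0.05 in palmitate libraries, against 1.08, 0.30 and 1.08 in controls. The groups did not overlap, and the difference of -0.83 reached the smallest p the design allows (exact permutation test, two-sided, p 0.1). The ratio of the Lta start to the Tnf start was -0.17, 0.40 and 0.56 in palmitate, against 0.76, 0.67 and 0.44 in control, with overlap (difference -0.37, exact permutation p 0.2). These pairs were chosen after the values were seen.

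The other 5 regions of the cluster did not pass, with log2 fold changes from -0.21 to 0.16. The region inside Tnf, 1.23 kb from its start, had 52.2 ± 2.48 CPM in palmitate and 47.0 ± 4.41 CPM in control (SD, n = 3 each). Per length it was the most accessible of the 24, at 189 CPM per kb in palmitate and 170 CPM per kb in control. The Lta start had 69.4 and 100 CPM per kb in palmitate and control, and the Ifng start 21.6 and 31.3. Summed over their regions, Lta had 88.3, 109 and 110 CPM in palmitate libraries, against 142, 114 and 134 CPM in controls, without overlap. For Tnf the sums were 101, 83.2 and 82.4 CPM in palmitate, against 93.2, 73.9 and 95.5 CPM in control, with overlap. Ltb had 108, 110 and 104 CPM in palmitate, against 101, 98.5 and 100 CPM in control, also without overlap but with palmitate higher. How often the sums of other genes separate the groups in this way was not computed, here or for Ifng and Il2.

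**Figure D4:**
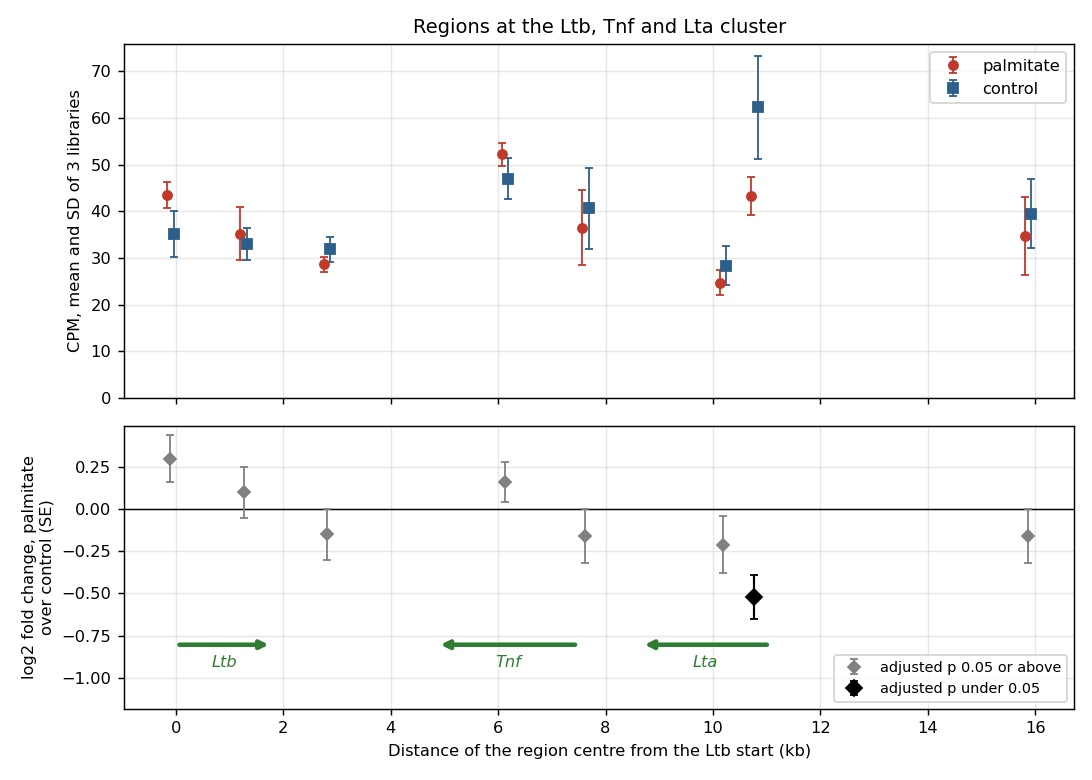
The 8 regions of the Ltb, Tnf and Lta cluster by distance of their centre from the Ltb start (kb), with the genes as arrows in the direction of transcription. Above, mean CPM with SD of 3 palmitate (circles) and 3 control (squares) libraries. Below, log2 fold change, palmitate over control, with SE. The black point, the Lta start, is at -0.52, and the 7 grey ones are between -0.21 and 0.30.

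Over the 24 regions, 19 had a log2 fold change below 0 with TMM factors and 16 with trended offsets. The share below 0 over all regions was not computed, so these counts show no shift particular to the loci. With TMM factors the median was -0.05 over all regions and -0.25 over intergenic regions, the place of 14 of the 24. Both counts of regions below 0 include the Ifng regions 24.7 and 49.5 kb downstream and the Il2 region 27.0 kb upstream. These had listed peaks in controls only, which favours lower values in palmitate. The Ifng region 33.7 kb upstream, also counted, needed a control list to enter the matrix. At Ifng, Il2 and Csf2 every region other than the one 21.5 kb upstream of Ifng had a higher log2 fold change with trended offsets than with TMM factors. The Lta start, the Tnf start and the Ifng region 21.5 kb upstream, all strong, moved slightly down. Of the 16 regions at Ifng, Il2 and Csf2, 13 had means below 15 CPM.

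**Figure D5:**
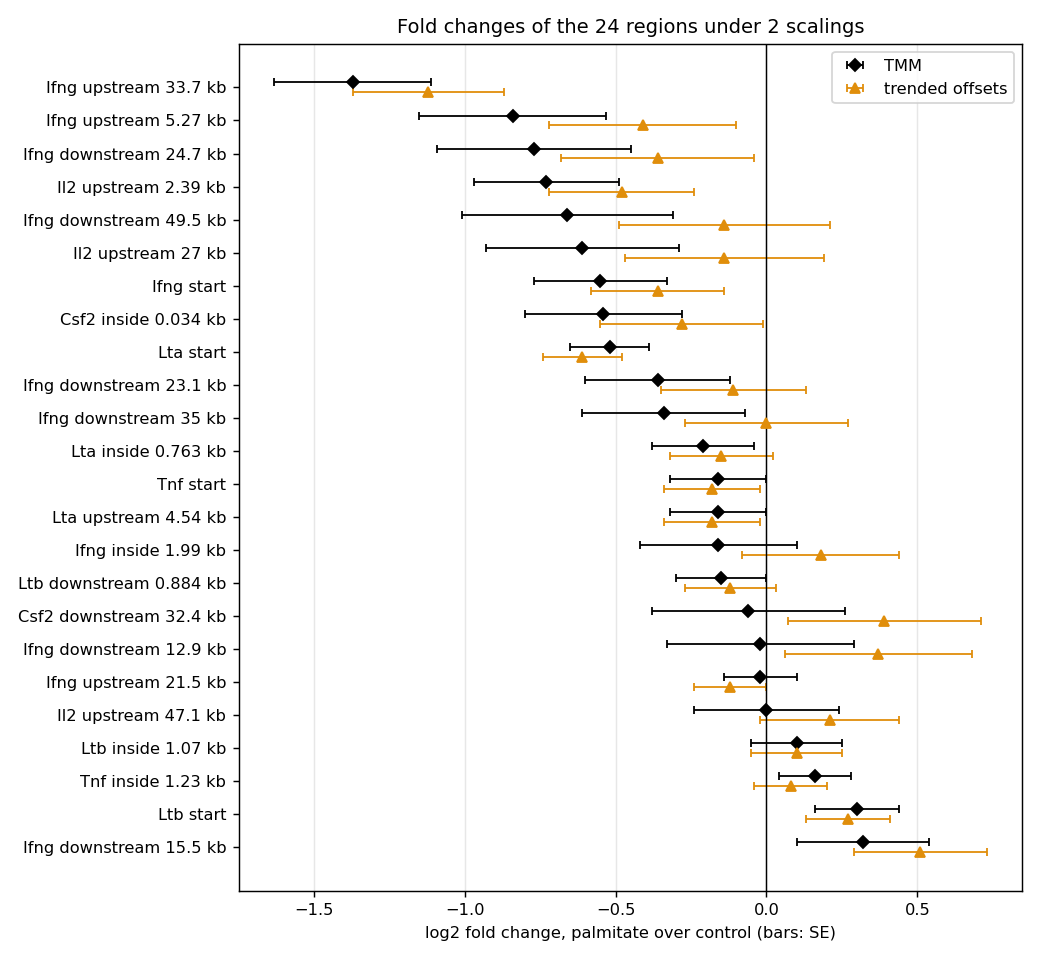
Log2 fold change, palmitate over control, with SE, for each of the 24 regions with TMM factors (diamonds) and trended offsets (triangles). The Ifng region 33.7 kb upstream stays lowest in both scalings (-1.37 and -1.12), and the Lta start is second lowest with trended offsets (-0.61).

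The authors' peak lists are separate for each library. At the 6 loci they held 16, 19 and 18 peaks in palmitate libraries, against 18, 25 and 26 in controls (exact permutation test, two-sided, p 0.3). At Il2 every palmitate list held 2 peaks and every control list 3 (exact permutation p 0.1, the smallest possible). The Ifng locus held 6, 8 and 7 peaks in palmitate and 7, 12 and 11 in control (exact permutation p 0.3). Mean peak numbers in palmitate and control were equal at Tnf (2 and 2) and Lta (2.67 and 2.67). They were 2.67 and 3 at Ltb, and 1.33 and 2.33 at Csf2 (exact permutation p 0.7). The palmitate lists were shorter as a whole, 20201 to 21502 peaks against 22359 to 27122 in control (exact permutation p 0.1, the same as at Il2). Relative to the length of the list, per 1000 listed peaks, the 6 loci held 0.844 in palmitate and 0.898 in control on average (exact permutation p 0.4).

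Genes that act with these cytokines were read at the strongest region within 1 kb of a gene end. Over all regions at gene ends, 25.0% were higher and 2.47% lower with TMM factors. These shares include weaker regions, so they are not like for like with counts over the strongest region of each gene. With trended offsets 1.49% of regions at gene ends were lower, and 2.08% of all regions were higher. Of 11 receptor genes of these cytokines, 7 had such a region, 1 was higher, 1 lower and 5 did not pass. The end of Il2rb, the interleukin-2 receptor beta chain, fell to 11.2 ± 0.79 CPM in palmitate, against 22.0 ± 0.232 CPM in control (SD, n = 3 each; log2 fold change -0.96, edgeR adjusted p 0.000931), and passed with trended offsets (-0.79, 0.0177). The end of Ifngr1, an interferon-gamma receptor chain, rose with TMM factors (254 ± 4.99 against 204 ± 2.38 CPM; log2 fold change 0.31, edgeR adjusted p 0.000497) but had a log2 fold change of 0.01 with trended offsets. The end of Il2rg, the common gamma chain, did not pass (35.3 ± 1.48 against 31.7 ± 3.22 CPM).

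Of 12 kinases, adaptors and STAT factors next to these receptors, 11 had a region, 3 were higher, 0 lower and 8 did not pass. Stat5a and Stat5b share 1 region. The higher ones included Map3k14, the kinase NIK of the lymphotoxin beta receptor pathway (log2 fold change 0.44), and Jak2, the kinase of the GM-CSF and interferon-gamma receptors (0.37), and none of the 3 passed with trended offsets. Of 20 factors known to bind cytokine genes in T cells, 16 had a region, 7 were higher, 0 lower and 9 did not pass. Without control 2 the count was 5 higher and 0 lower, since Runx1 and Irf4 no longer passed (edgeR adjusted p 0.077 and 0.0846). With trended offsets 1 was higher, Junb, a subunit of AP-1 (158 ± 10.9 against 114 ± 12.9 CPM, SD, n = 3; log2 fold change 0.24, edgeR adjusted p 0.0468). The ends of Nfatc3, an NFAT factor, and Nfkb1, an NF-kB subunit, rose with TMM factors by 0.28 and 0.45 on the log2 scale and did not pass with trended offsets (edgeR adjusted p 0.944 and 0.0555). Of 22 other cytokine genes of T cells 9 had a region at a gene end, and 1 was higher, Tgfb1 (log2 fold change 0.40, edgeR adjusted p 0.000918; 0.214 with trended offsets). The ends of Tnfsf4 and Fasl had log2 fold changes of 0.38 and -0.31 and did not pass.

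Genes whose summed accessibility ran most like each locus were found by Pearson's r of log2 summed CPM over the 6 libraries, among 10485 other genes. For Ifng they were Lgals9, Bbs9 and Gemin2 (r 0.995, 0.993 and 0.992), and for Il2 Tbcd, Aipl1 and Rrp1b (0.994, 0.992 and 0.991). For Lta they were Cmya5, Uck1 and Ccl3 (0.990, 0.985 and 0.984), for Tnf C1qtnf12 and Ube2k (0.985 and 0.968). For Csf2 they were Dcun1d3, Secisbp2 and Evl (0.962, 0.957 and 0.952), and for Ltb Mroh1, 1700037H04Rik and Tmem97 (0.998, 0.998 and 0.996). These are descriptions over 6 points that share the libraries and their 2 groups, chosen as the highest r.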

How the data were processed

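ATAC-seq was read in 3 palmitate and 3 control libraries of mouse CD8+ T cells, grouped by the treatment label. Per the submitters' processing notes, the build was mm10, and the tools included MACS2 2.2.8 and edgeR 3.40.2 beside Bowtie2 2.5.1, Trim Galore 0.6.10 and Picard 2.23.8. Not given in the sources used here were Tn5 read shift, region merging and counting. The authors deposited raw counts per region, and a peak list per library whose score column was used only to set a stricter threshold. No matrix region was in fewer than 2 of the 6 lists.

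Counts were tested in edgeR 4.0.16 (R 4.3.3) by the quasi-likelihood test with TMM factors, filterByExpr (289 regions removed, all 24 at the cytokine genes kept) and Benjamini-Hochberg adjustment over 24316 regions at 0.05. Alternatives were DESeq2 1.42.0, limma 3.58.1 (voom), other scalings and filters, trended offsets (loess span 0.3, pseudocount 0.5 reads), leaving out each library and a replicate block. Leaving out libraries with trended offsets, the pathway counts without control 2, and the ratios between regions, were added after seeing the data. Steps were tested on simulated data. Gene positions come from RefSeq for GRCm38.p6. Values in every library were given by rule for regions that passed and for the strongest region within 1 kb of each gene's ends. For pathway lists the rule was to name at most the 3 genes of smallest p. Outside that rule, Runx1 and Irf4 were named for calls lost without control 2, and Stat5a and Stat5b for their shared region. Other regions given in full were chosen after their values were seen. A few genes that the rule names are not reported here. The genes and lists were chosen with earlier results of these data known. The count totals set the precision, and intervals cover the spread between libraries only.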

Additional observations from a re-analysis of the deposited data

How the results depend on the processing

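At the 6 cytokine loci the count of lower regions was 4. It was 2 in the DESeq2 Wald test, 2 with trended offsets, 3 in limma-voom and 3 with DESeq2 size factors. Among the 11 regions in all 6 peak lists it was 2, and among the 13 within 10 kb it was 3. No share over all regions was computed for such subsets. With upper-quartile factors the count at the loci was 5, and with total counts it was 6. It ran from 2 to 4 with 1 library left out (2 without palmitate 2). The count of higher regions was 0, and 0 to 1 with 1 library left out, the 1 being the Ltb start without control 2. Over all regions, lower calls were 3078, against 1236 in the DESeq2 Wald test, 1061 with trended offsets and 4331 with total counts, and 1871 (without control 3) to 3391 with 1 library left out, 1919 of them without palmitate 3. Higher calls were 2894, against 1888 (DESeq2 Wald test), 505 (trended offsets) and 1282 (total counts). In limma-voom 2871 of all regions were lower and 2803 higher. With DESeq2 size factors it was 2825 and 3310, and with upper-quartile factors 3601 and 1993. Same-numbered libraries did not deviate together (correlations 0, -0.105 and -0.027, and 0 of 6 libraries correlated best with their own number). The replicate block gave 3 lower regions at the loci, losing the Ifng region 5.27 kb upstream (edgeR adjusted p 0.0575), and 2821 lower and 2712 higher over all.

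Signs reversed at regions that did not pass, and the cause was not tested. The Ifng region 21.5 kb upstream had a log2 fold change of 0.01 in DESeq2, 0.01 with its size factors and 0.14 without control 2 (-0.08 to 0.14 with 1 library left out). The one inside Ifng had 0.18 with trended offsets. The one 12.9 kb downstream had 0.03 in DESeq2, 0.02 with its size factors, 0.07 in limma-voom, 0.02 with the replicate block, 0.37 with trended offsets, and -0.25 to 0.47 with 1 library left out. The Csf2 region 32.4 kb downstream had 0.39 with trended offsets, 0.17 without control 1 and 0.10 without palmitate 1 (-0.28 to 0.17 with 1 left out). The one inside Ltb had -0.01 with total counts, and the Tnf start 0.03 without control 3 (-0.34 to 0.03 with 1 left out). The difference in listed peaks was -5.33 and ran from -7.83 to -3.83 with 1 library left out. It was -2.67 among peaks above the median score and -5.33 by peak centre.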

Other observations

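The nearest region beyond the 50 kb limit upstream of Ifng (chromosome 10, 118386393 to 118386965, mm10) had 3.94, 6.46 and 8.05 CPM in palmitate libraries 1 to 3, against 10.5, 8.98 and 16.7 CPM in controls 1 to 3. The groups did not overlap (log2 fold change -0.97, edgeR adjusted p 0.0184). Of the 122 peaks that the 6 lists held at the cytokine loci, 6 lay in no region of the count matrix and were not tested.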
